A study of Mus musculus with 12 samples.

Results

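This comparison set the upper lip territory of the thalamus of embWPC pups against both control territories at once, to find genes whose level lay outside the range that the controls span. It used 12 of 12 libraries of the series, chosen by their labels: 4 of embWPC ALBSF, 4 of Ctrl ALBSF and 4 of Ctrl PMBSF. The value of a gene was its level in embWPC ALBSF minus the average of the Ctrl ALBSF and Ctrl PMBSF levels, on the log2 scale. No gene passed edgeR's test across all genes. The genes described here are those of smallest p, members of gene lists, genes that separate the control territories and check genes, and called means called by edgeR with the count filter unless another fit is named.

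The samples were mouse brain tissue at postnatal day 0, cut at 300 µm and microdissected from the ventroposterior medial nucleus. PMBSF is the territory of this nucleus that receives whisker pad input, and the series design ties ALBSF to input from the upper lip. Ctrl pups gave both territories and embWPC pups gave ALBSF, and no embWPC PMBSF was analysed here. Each library pooled 5 brains, so p-values measure the spread between pools and not between pups. The labels do not spell out embWPC, and the name is used as it stands; strain and sex are not given in the sources used here.

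The ventroposterior medial nucleus relays touch from the face to the barrel field of the somatosensory cortex. Its neurons receive trigeminal brainstem input, release glutamate, and are arranged as a map of the face that forms around birth. The thalamic reticular nucleus, whose neurons are GABAergic, lies beside it, and in bulk tissue fewer cells of a type and less RNA per cell cannot be told apart.

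Library totals ran from 28457046 to 34512840 counts, and mitochondrial genes took 1.72 to 3.45% of the counts. The labelled tissue was checked by the relay neuron marker Slc17a6, the vesicular glutamate transporter. It ran from 336 to 404 CPM (counts scaled to a common library size) in the 8 control libraries and from 366 to 430 CPM in embWPC ALBSF. Other relay markers were less even. Gbx2 was at 14.9 CPM in embWPC ALBSF 2, 1.86 to 3.31 CPM in the other embWPC libraries and 2.885 to 7.70 CPM in the controls. Tcf7l2 ran from 587 to 1289 CPM in the controls and from 703 to 1125.5 CPM in embWPC ALBSF. Lef1 ran from 85.9 to 106 CPM and from 94.1 to 120 CPM in the same order. The sex-linked genes went against a shared number in the controls. Ctrl ALBSF 2 had 68.7 CPM of Xist, the RNA of the inactive X chromosome, and 0 of the Y-linked Ddx3y, whereas Ctrl PMBSF 2 had 0.0614 CPM of Xist and 34.6 of Ddx3y, so these 2 pools came from different pups. Ctrl ALBSF 3 and Ctrl PMBSF 3 also had Xist near 0, at 0.0692 and 0.112 CPM. Every embWPC pool held both, with Xist from 7.41 to 36.6 CPM and Ddx3y from 9.64 to 33.7 CPM. Results are therefore also given without both control libraries numbered 2.

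Among 17501 genes tested, 0 were called higher and 0 lower than the average of the controls (edgeR's quasi-likelihood test, Benjamini-Hochberg adjusted p under 0.05; percent called 0). The smallest adjusted p was 0.264. At an unadjusted p under 0.05 there were 1361 genes, 7.78% of those tested, of which 565 were higher (3.23%) and 796 lower (4.55%). DESeq2 called 12 genes in the same contrast, 4 higher and 8 lower, and limma-voom with sample quality weights called 0 (smallest adjusted p = 0.564). The edgeR fit took the 8 control libraries as independent, although same-numbered Ctrl ALBSF and Ctrl PMBSF libraries correlated at 0.198 to 0.396. Its SEs and p-values may therefore be too small and its 95% intervals too narrow. With control pools as a random effect, limma-voom called 0, with a smallest adjusted p of 0.754. The DESeq2 calls included Penk (adjusted p = 2.49e-05), Pnma8c (0.000814), Zdbf2 (0.0179), Ptgds, Npc1, Gamt and Mt3 on the lower side and Dpysl4 and BC030343 on the higher side, all described below by their edgeR values. Without the filter on low counts edgeR called 18 genes, 4 higher and 14 lower, among them Gnas (adjusted p = 0.00148). Without both control libraries numbered 2, edgeR called 1 gene, the ribosomal protein pseudogene Rps2-ps10, which was higher. Whether its reads were told apart from those of similar sequences was not tested, and the multi-mapping setting is not given.

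A stricter test asked for a level beyond both controls in the same direction, taking the larger of the p-values against Ctrl ALBSF and against Ctrl PMBSF. It called 0 genes (smallest adjusted p = 1), with 285 at an unadjusted p under 0.05, 1.63% of genes, of which 92 lay above and 193 below both controls. DESeq2 also called 0, with a smallest adjusted p of 0.0921. Of all genes tested, embWPC ALBSF had a mean above both controls for 5174 (29.6%), below both for 6200 (35.4%) and between them for 6127 (35%). All 4 embWPC libraries lay above all 8 control libraries for 53 genes (0.303%) and below all 8 for 63 (0.36%). Without any difference between groups, spread alone would put most means outside both controls and some genes wholly apart, so these shares are a description. The median of all genes was -0.01 on the log2 scale, a value that the scaling of the libraries holds near 0.

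**Figure D1:**
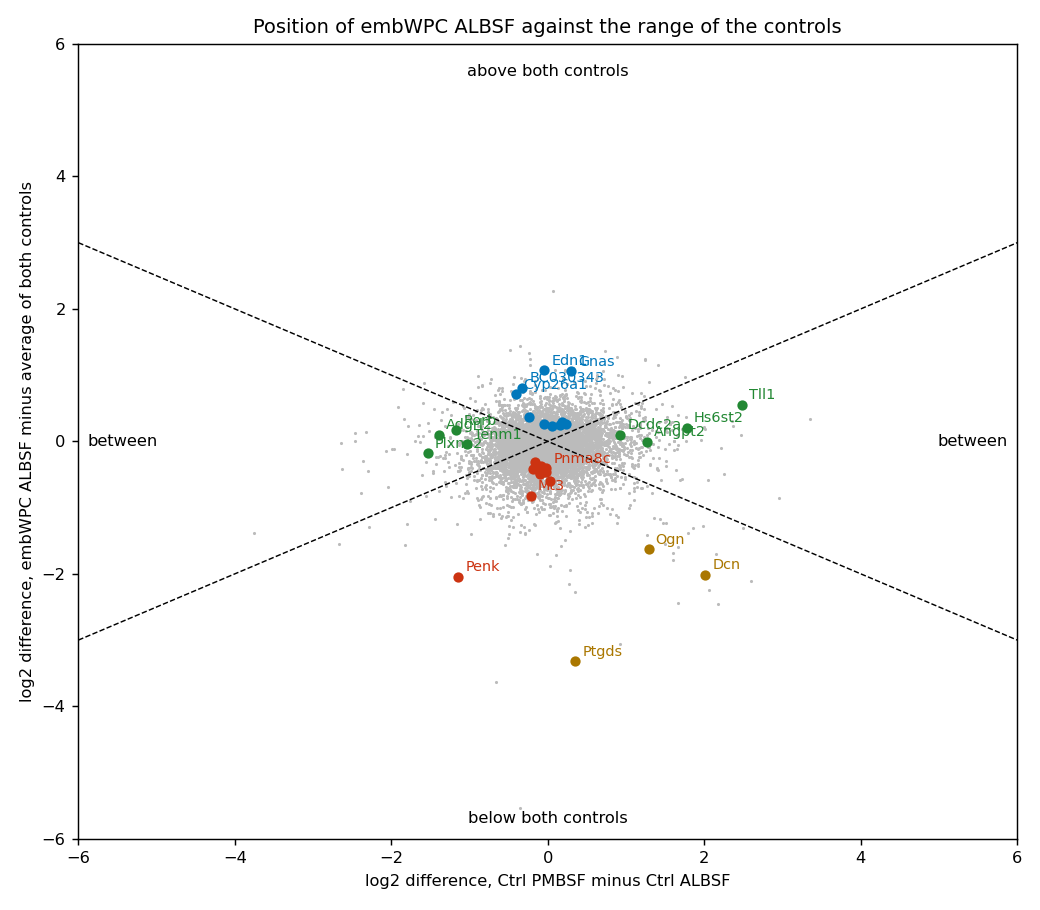
Each grey point is 1 of 17501 genes, with the log2 difference between the control territories on the horizontal axis and the log2 difference of embWPC ALBSF from their average on the vertical axis; dashed lines mark the levels of the 2 controls. Among the coloured points, which are some of the genes named in the text, Penk and Ptgds lie farthest below the lower control, while Tll1, Adgrl2 and other territory genes lie between the lines.

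Penk, which encodes the precursor of the enkephalin opioid peptides (GRCm39 chromosome 4, 4132722 to 4141856), had one of the smallest p-values. Its level was 4.53, 3.87, 3.11 and 1.39 CPM in the Ctrl ALBSF libraries 1 to 4, 2.19, 1.53, 1.23 and 0.848 CPM in Ctrl PMBSF, and 0.403, 0.549, 0.496 and 0.629 CPM in embWPC ALBSF. All 4 embWPC libraries lay below all 8 controls, and the control libraries themselves spread more than the embWPC ones. The contrast was -2.04 ± 0.34 (log2, SE, n = 4 per group), a level of 0.243 times that of the controls (95% interval 0.146 to 0.403), with an adjusted p of 0.264. Against each control separately it was -2.62 for Ctrl ALBSF, which passed the test at an adjusted p of 0.0215, and -1.47 for Ctrl PMBSF (adjusted p = 0.298). Without Ctrl ALBSF 4, edgeR called Penk in the averaged contrast at an adjusted p of 0.0342.

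Other neuropeptide genes lay on the same side. Of 41 opioid and other neuropeptide genes, 32 were tested, edgeR called 0, and 29 had values below the average of the controls (52.7% of all genes did), and 3 above it (47.3% of all genes did), with a list median of -0.37 against -0.01 for all genes. Of these 32, 8 were lower at an unadjusted p under 0.05 (4.55% of all genes) and 0 were higher, and 21 lay below both controls (35.4% of all genes). The summed CPM of the list overlapped, at 5660.8 to 6907.9 in Ctrl ALBSF, 5205.9 to 6272.6 in Ctrl PMBSF and 4511.6 to 7067.3 in embWPC ALBSF. Averaged over the list, log2 CPM was 1.98 to 2.66 in the controls and 1.73 to 2.02 in embWPC ALBSF, overlapping through embWPC ALBSF 4. DESeq2 called Penk, and edgeR without the count filter called Penk and Pnoc. Hypothalamic, zona incerta and habenular neuron markers (9 of 10 lower, median -0.39) and cortical, hippocampal and striatal neuron markers (21 of 23 lower, median -0.22) lay on the same side, and their part in the neuropeptide values was not tested. Pomc is a member of both the hypothalamic and the neuropeptide list. Pnoc, the precursor of nociceptin, ranged from 13.53 to 28.98 CPM in the controls and from 9.37 to 13.47 CPM in embWPC ALBSF (log2 -0.68 ± 0.16, SE, adjusted p = 0.567). Its 4 embWPC libraries also lay below all 8 controls, by a narrow gap. Cartpt, the precursor of CART peptides, was at 0.0662 to 0.162 CPM in embWPC ALBSF and 0.0992 to 1.04 CPM in the controls, and the groups overlapped.

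Markers of the adjacent GABAergic neurons lay on the same side as the neuropeptide genes, and their part in that result was not tested beyond the covariate given here. These lists share Sst and Npy, and the cortical list shares Six3 and Isl1 with the GABAergic one, so the lists are not independent. Of 19 prethalamic and reticular GABAergic markers tested, 17 had values below the average of the controls (52.7% of all genes did) and 2 above, with a median of -0.63. At an unadjusted p under 0.05 only 1 was lower (4.55% of all genes) and 1 higher (3.23% of all genes), and edgeR called 0. The groups overlapped in their summed level, which was 23.3 to 115 CPM in Ctrl ALBSF, 32.7 to 102 CPM in Ctrl PMBSF and 27.3 to 76.1 CPM in embWPC ALBSF. Gad2, the GABA-synthesizing enzyme, was at 8.37, 3.41, 3.94 and 0.959 CPM in Ctrl ALBSF 1 to 4, 3.48, 6.14, 7.47 and 2.23 in Ctrl PMBSF, and 1.14, 1.81, 2.52 and 6.11 in embWPC ALBSF. Library 4 had the least of both Gad2 and Penk in Ctrl ALBSF and in Ctrl PMBSF, and the most of both in embWPC ALBSF. In Ctrl PMBSF the most Gad2 was in library 3 and the most Penk (2.19 CPM) in library 1. Set against the controls, embWPC ALBSF 4 had more Gad2 than 5 of the 8 control libraries and less Penk than all 8. The peptide somatostatin, Sst, which is a marker in this list, had a contrast of -1.26 ± 0.44 (SE, adjusted p = 0.582). With the mean level of the GABAergic markers as a covariate, a choice made after seeing the data, Penk stood at -1.74 with an adjusted p of 0.306. Gata2, a transcription factor of GABAergic precursors, went the other way, with all 4 embWPC libraries above all 8 controls (0.993 to 1.68 against 0.529 to 0.972 CPM; log2 0.75 ± 0.21, adjusted p = 0.567).

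Pnma8c, a member of the PNMA gene family (chromosome 7, 16717011 to 16722077), had the smallest p of all genes, 2.54e-05. It was at 14.7, 15.2, 14.3 and 15.01 CPM in Ctrl ALBSF, 15.5, 14.5, 14.2 and 14.1 CPM in Ctrl PMBSF, and 11.7, 10.7, 11.4 and 10.6 CPM in embWPC ALBSF. The controls differed from each other by -0.02 (adjusted p = 0.952), and all embWPC libraries lay below all 8. The contrast was -0.40 ± 0.07 (SE), 0.756 times the controls (95% interval 0.684 to 0.834), with an adjusted p of 0.264. Zdbf2, an imprinted gene that encodes a zinc finger protein (chromosome 1, 63312363 to 63353735), showed a like pattern. Its level was 10.3 to 11.2 CPM in Ctrl ALBSF, 9.24 to 12.02 CPM in Ctrl PMBSF and 7.27 to 8.18 CPM in embWPC ALBSF (log2 -0.46 ± 0.09, adjusted p = 0.567), again with no overlap. Npc1, which moves cholesterol out of lysosomes, was at 9.80 to 12.5 CPM in embWPC ALBSF and 13.9 to 19.0 in the controls (log2 -0.42 ± 0.09).

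The remaining genes of lowest p on this side were Gamt, an enzyme of creatine synthesis, Mt3, a brain metallothionein, Ramp2 and Ramp3, which modify receptors of the calcitonin family, Resp18, a protein of secretory granules, and Trappc2l, a subunit of a vesicle tethering complex. Their contrasts ran from -0.82 ± 0.18 for Mt3 to -0.31 ± 0.07 for Ramp2, each with an adjusted p of 0.567. Ramp3 and Trappc2l lay below all 8 controls in every embWPC library, and the others overlapped. Ramp2 shares 28.5% of its exon bases with Vps25 on the same strand and Gamt shares 24.9% with Ndufs7 on the other, so these counts are uncertain. Opposite-strand genes cover 10.5 to 21.2% of the exon bases of Penk, Vegfc, Tcp11l2, Edn1, Aif1, Ogn, Gata2, Spry1 and Plxna2, with the same uncertainty.

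**Figure D2:**
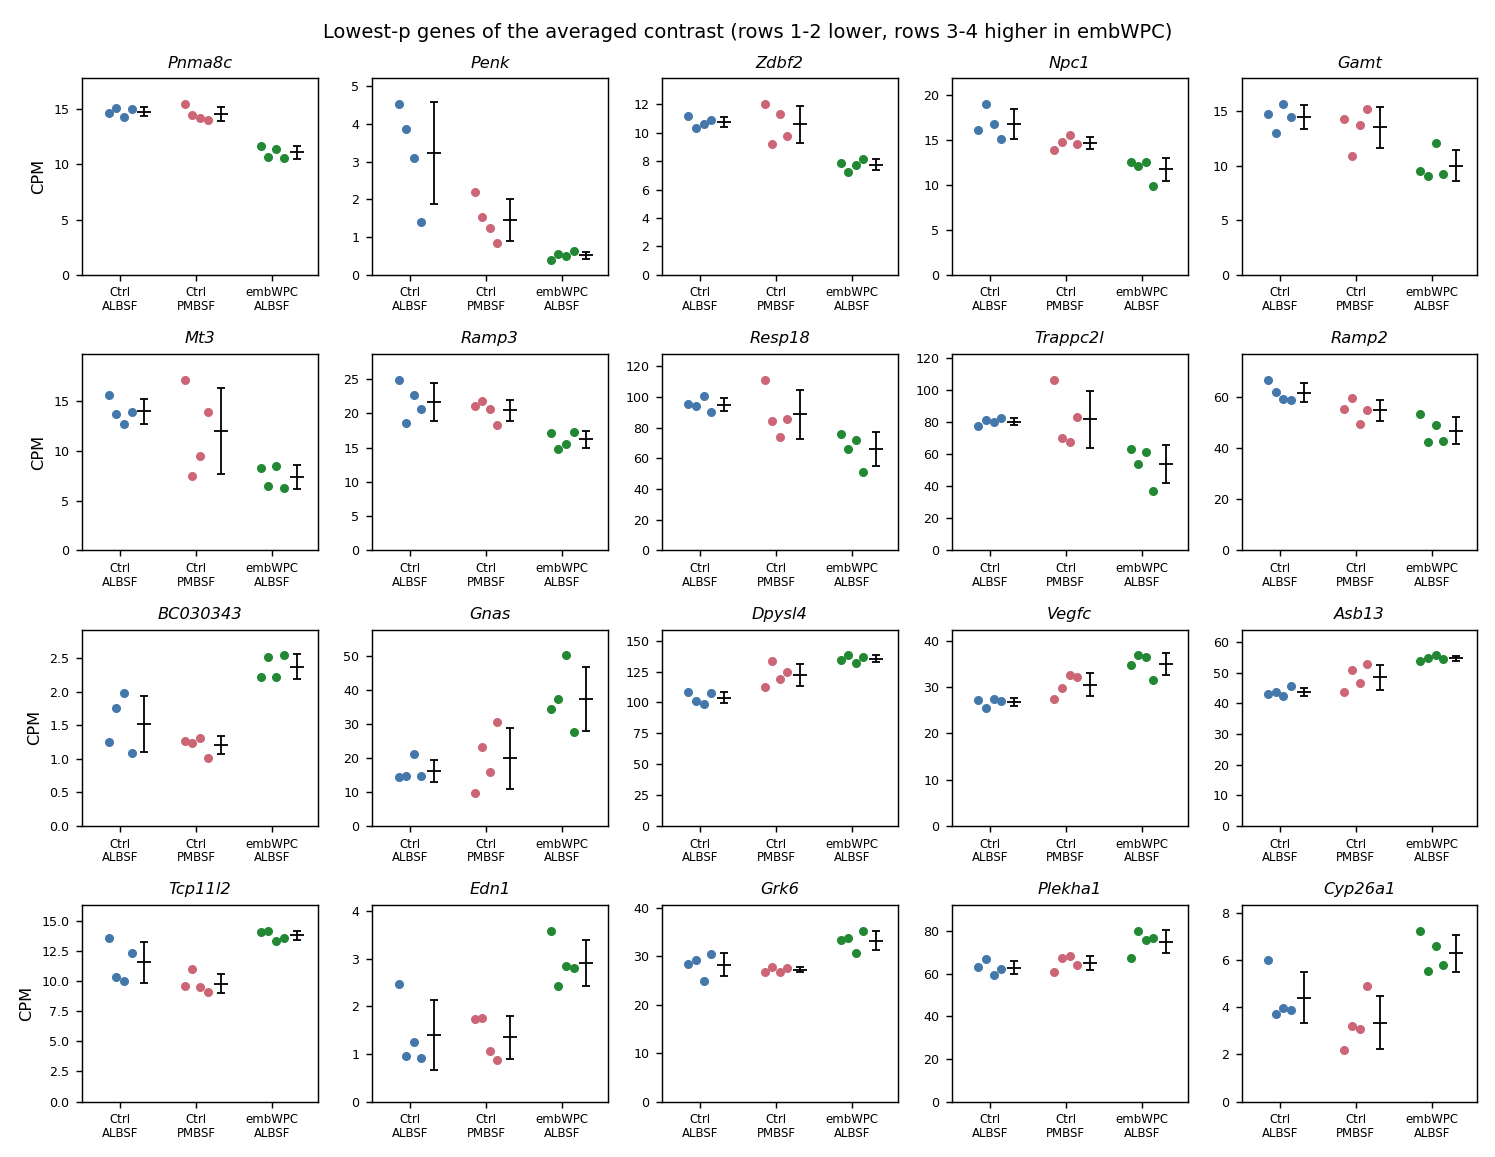
CPM by library (points) with the mean and SD of each group of 4 (bar) for the 20 genes of lowest p, 10 lower in rows 1 and 2 and 10 higher in rows 3 and 4. In Penk and Pnma8c the embWPC points lie below every control point, and in Gnas they overlap Ctrl PMBSF.

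On the higher side, Gnas, which encodes the stimulatory G protein alpha subunit and neighbouring imprinted transcripts (chromosome 2, 174126022 to 174188537), had one of the largest contrasts among genes named by p. Its level was 14.5, 14.7, 21.1 and 14.9 CPM in Ctrl ALBSF, 9.80, 23.4, 16.01 and 30.6 in Ctrl PMBSF, and 34.6, 37.4, 50.3 and 27.8 in embWPC ALBSF. The lowest embWPC library lay under the highest Ctrl PMBSF library, so the groups overlapped by 1 library on each side. The contrast was 1.06 ± 0.23 (SE), 2.08-fold (95% interval 1.49 to 2.92), with an adjusted p of 0.567, and Gnasas1 covers 9.3% of its exon bases on the other strand. Edn1, the vasoconstrictor endothelin, was at 2.42 to 3.59 CPM in embWPC ALBSF and 0.879 to 2.48 in the controls (log2 1.08 ± 0.26). BC030343 (chromosome 5) was at 2.21 to 2.54 CPM against 1.00 to 1.97, above all 8 controls (log2 0.81 ± 0.17).

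Other genes of lowest p on the same side had smaller differences. Dpysl4, a collapsin response mediator protein, was at 132 to 138 CPM in embWPC ALBSF and 98.8 to 133 in the controls (log2 0.26 ± 0.06, adjusted p = 0.567). Asb13, a substrate adaptor of ubiquitin ligases, and Grk6, a kinase of G protein coupled receptors, lay above all 8 controls in every embWPC library, with contrasts of 0.25 ± 0.06 and 0.26 ± 0.06. Vegfc, a lymphatic growth factor, Plekha1, a phosphoinositide-binding adaptor, Tcp11l2 and Cyp26a1, which breaks down retinoic acid, had contrasts from 0.23 to 0.71 and overlapped the controls.

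Meningeal fibroblast markers were the list with the median farthest from 0 among the 31 lists. All 21 tested lay below the average of the controls (52.7% of all genes did), 11 of them at an unadjusted p under 0.05 (4.55% of all genes). Below both controls lay 18 (35.4% of all genes), but edgeR called 0. DESeq2 called Ptgds, and edgeR without the count filter called Ptgds, Dcn and Col3a1, with Ptgds also beyond both controls (adjusted p = 0.0375). The list median was -1.18, against -0.46 in the contrast with Ctrl ALBSF and -1.68 with Ctrl PMBSF. Ptgds, which makes prostaglandin D2 and is abundant in the meninges (chromosome 2, 25352795 to 25362601), was at 5.46, 102, 10.2 and 8.63 CPM in Ctrl ALBSF, 15.9, 31.6, 34.98 and 78.3 CPM in Ctrl PMBSF, and 4.09, 4.36, 1.79 and 3.93 CPM in embWPC ALBSF. All embWPC libraries lay below all 8 controls, and Ctrl ALBSF 2 stood far above the rest of its group. The contrast was -3.32 ± 0.80 (SE), with an adjusted p of 0.567, and it was -2.34 without Ctrl ALBSF 2.

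Dcn and Ogn, proteoglycans of connective tissue, had their highest levels in Ctrl PMBSF. Dcn was at 1.34 to 1.95 CPM in Ctrl ALBSF, 0.864, 14.6, 5.26 and 6.19 in Ctrl PMBSF 1 to 4 and 0.498 to 1.21 in embWPC ALBSF, so the embWPC libraries overlapped Ctrl PMBSF 1. Its contrast was -2.01 ± 0.54, and Ogn had -1.63 ± 0.38 (each adjusted p = 0.567). Averaged over the list, log2 CPM was 1.05 to 1.36 in Ctrl ALBSF, 1.14, 2.9, 2.04 and 1.98 in Ctrl PMBSF, and 0.52 to 0.83 in embWPC ALBSF. The summed CPM of the list was 602.5 to 645.7, 405.7 to 626.4 and 424.3 to 580.8 in the same order. By this sum embWPC ALBSF overlapped Ctrl PMBSF and lay below Ctrl ALBSF. With the list mean as a covariate, a choice made after seeing the data, edgeR called Mt3 alone (adjusted p = 0.0365). The list mean did not overlap between embWPC and control libraries, so it and the group cannot be told apart in that fit. Whether the amount of meninges taken with the tissue had a part in other results was not tested.

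**Figure D3:**
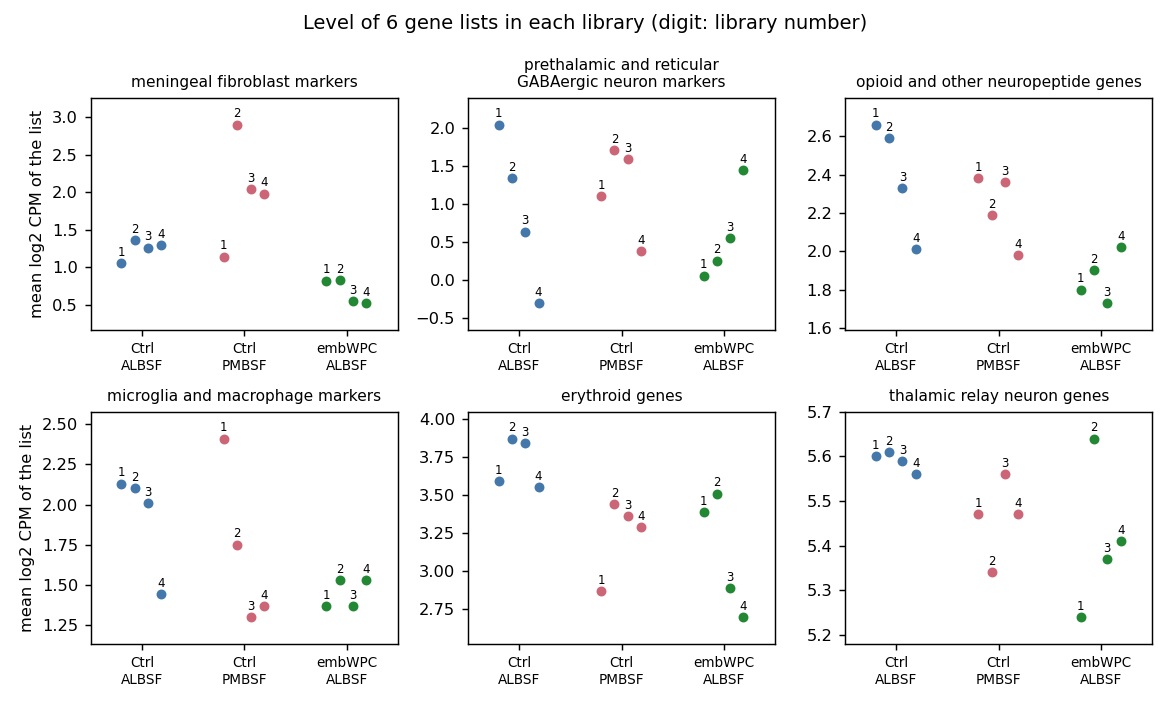
Mean log2 CPM of 6 gene lists in each library, with the library number beside each point. On this mean log2 scale the meningeal list is lowest in the 4 embWPC libraries (0.52 to 0.83), and the GABAergic list overlaps between groups.

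Blood and immune markers also lay low. Of 19 microglia and macrophage markers, 17 had values below the average of the controls (52.7% of all genes did), with a median of -0.41. At an unadjusted p under 0.05, 4 were lower (4.55% of all genes), and 0 were called. Aif1, a calcium-binding protein of microglia, was at 2.49 to 3.99 CPM in embWPC ALBSF and 4.11 to 6.94 in the controls without overlap (log2 -0.68 ± 0.16, adjusted p = 0.567). The defining marker P2ry12 overlapped, with 10.3 to 16.5 CPM against 9.79 to 21.0. Of 9 erythroid genes 7 lay lower, with a median of -0.28, and Hbb-bs, beta globin, was at 146 to 320 CPM against 312 to 485 (log2 -0.64 ± 0.17), overlapping through embWPC ALBSF 1, and was called by edgeR without the count filter. Ependymal and choroid plexus markers had 9 of 11 lower, with a median of -0.55. Averaged over that list, log2 CPM overlapped, at 0.01 to 0.53 in embWPC ALBSF and 0.25 to 1.36 in the controls. Each control territory had its highest list mean in the library numbered 2. Endothelial and mural markers had 17 of 24 higher, with a median of 0.09, and Cldn5, the tight junction claudin, overlapped at 47.8 to 53.3 against 42.9 to 70.7 CPM.

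Thalamic relay genes gave no common direction. Of 30, 13 lay above and 17 below the average of the controls, with a median of -0.02 and 0 called. At an unadjusted p under 0.05, 2 were higher and 3 lower (3.23% and 4.55% of all genes). Rora, a nuclear receptor of relay neurons, was at 587 to 750 CPM in embWPC ALBSF, 617 to 707 in Ctrl PMBSF and 489 to 510 in Ctrl ALBSF (log2 0.23 ± 0.08, adjusted p = 0.573). Its embWPC mean lay above both, but only 0.03 above Ctrl PMBSF. Lhx2, a LIM homeodomain factor, had a contrast of -0.99 ± 0.33 with overlapping libraries. Etv1, an ETS factor, lay between the controls although its averaged contrast was -0.36 ± 0.12, since embWPC ALBSF (12.1 to 16.9 CPM) was near the lower control, Ctrl PMBSF (12.8 to 15.3).

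Genes that separate the 2 control territories lay mostly inside the control range. Of 284 genes called between Ctrl PMBSF and Ctrl ALBSF (1.62% of genes tested), embWPC ALBSF was between the controls for 270, above both for 5 and below both for 9. Choosing genes for a wide gap between the controls widens that range, so this share is a description. Adgrl2, a latrophilin of synapses, was at 160 to 179 CPM in Ctrl ALBSF, 63.7 to 67.4 in Ctrl PMBSF and 103 to 118 in embWPC ALBSF, with no overlap between any groups. Against each control it differed by -0.60 (adjusted p = 0.00425) and 0.80 (adjusted p = 0.000107), while the averaged contrast was 0.10 ± 0.06. Tll1, a tolloid-like metalloprotease, was at 1.32 to 3.21, 10.2 to 15.8 and 6.11 to 9.51 CPM in the same order, with an averaged contrast of 0.56 ± 0.20, or 0.07 with all 8 controls as 1 group.

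The others named by the control contrast also had means between the controls, and none of them was called against both controls. Plxna2, a plexin receptor of semaphorins, and Tenm1, a teneurin that binds latrophilins, had averaged contrasts of -0.18 ± 0.13 and -0.05 ± 0.09. Hs6st2, a heparan sulfate sulfotransferase, Dcdc2a, a doublecortin-domain protein, and Rorb, a nuclear receptor, had 0.21 ± 0.16, 0.10 ± 0.08 and 0.17 ± 0.10. Angpt2, a ligand of the Tie2 receptor, was at -0.01 ± 0.12. It shares 70.7% of its exon bases with Mcph1 on the other strand, so its count is uncertain.

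**Figure D4:**
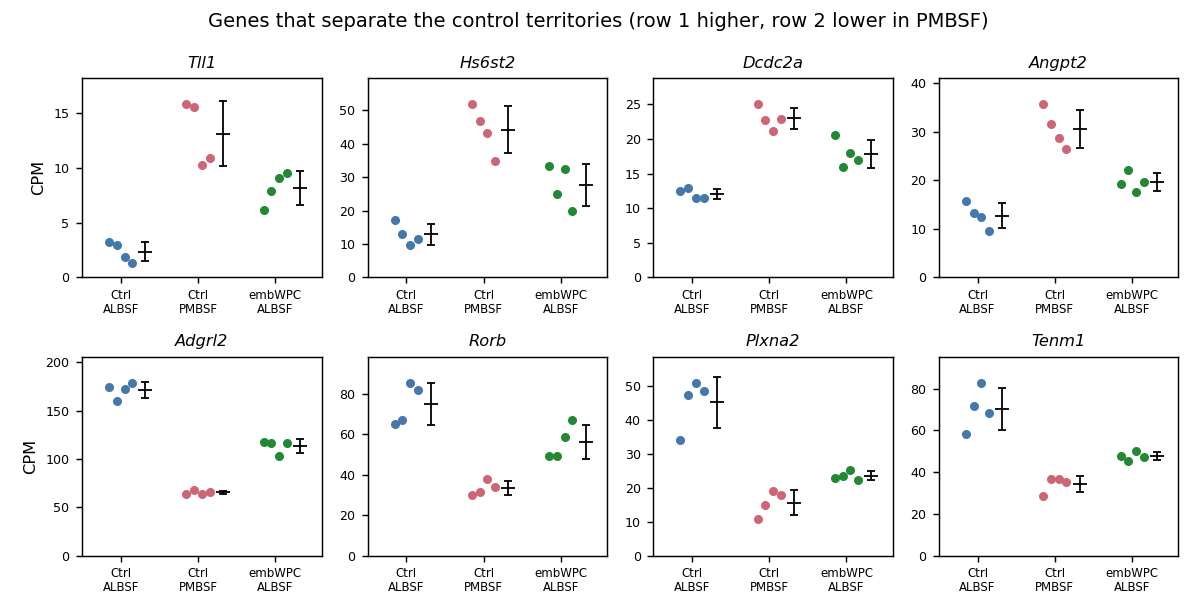
CPM by library (points) with mean and SD (bar) of 8 genes that separate the control territories, 4 higher and 4 lower in PMBSF. The embWPC means lie between the control means in all 8 panels.

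Adhesion and synapse genes included several near one control. Of 16 cadherins, 3 were lower at an unadjusted p under 0.05 (4.55% of all genes) and 0 higher (3.23% of all genes). Cdh9 was at 0.470 to 0.808 CPM in embWPC ALBSF, 0.430 to 0.810 in Ctrl PMBSF and 1.36 to 4.26 in Ctrl ALBSF, with an averaged contrast of -1.29 ± 0.31 made of -2.44 against Ctrl ALBSF and -0.15 against Ctrl PMBSF. Cdh22 was alike, at -0.98 against Ctrl ALBSF and -0.13 against Ctrl PMBSF. Of 41 synaptic organisers, 26 lay lower with a median of -0.06. Cbln2, a cerebellin that joins neurexins to receptors across the synapse, was at 35.7 to 52.8 CPM in embWPC ALBSF and 55.3 to 106 in the controls without overlap (log2 -0.66 ± 0.17, adjusted p = 0.567; called without the count filter), and Flrt3, a ligand of latrophilins, at 5.88 to 7.55 against 7.21 to 10.6.

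Among matrix genes, 4 of 40 were higher and 4 lower at an unadjusted p under 0.05 (3.23% and 4.55% of all genes), with a median of 0.05. Vcan, the proteoglycan versican, which edgeR called without the count filter, had a contrast of -0.74 ± 0.19, and the heparan sulfate sulfotransferases Hs6st1 and Hs3st5 had 0.23 ± 0.07 and 0.23 ± 0.09, all overlapping the controls. Of 45 Wnt, Bmp, activin, Shh, Notch and retinoic acid genes, 32 lay lower (52.7% of all genes did) with a median of -0.10, 7 at an unadjusted p under 0.05 (4.55% of all genes). Aldh1a2, which makes retinoic acid, and Rarb, a receptor for it, had contrasts of -1.79 ± 0.54 and -0.93 ± 0.30, and Aldh1a2 overlapped the controls. Aldh1a2 is also one of the meningeal markers, was highest in Ctrl PMBSF 2 (3.96 CPM) like Dcn, and stood at -0.38 with the meningeal covariate. Rarb lay below all 8 controls, at 0.132 to 0.288 against 0.331 to 0.614 CPM. It shares 31.2% of its exon bases with Top2b on the other strand, so its count is uncertain, and Cyp26a1, which removes retinoic acid, lay on the other side, as given above.

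Activity-regulated and growth factor genes had more members above than below the average of the controls, with medians near that of all genes. Of 30 immediate early genes 20 lay higher (47.3% of all genes did), 4 at an unadjusted p under 0.05 (3.23% of all genes), with a median of 0.05. Egr3, an activity-induced zinc finger factor, was at 0.314 to 0.517 CPM in embWPC ALBSF and 0.0314 to 0.280 in the controls without overlap (log2 1.33 ± 0.40, adjusted p = 0.567), under 1 CPM in every library. Nr4a1 and Dusp4 overlapped the controls at 0.29 ± 0.11 and 0.36 ± 0.14, and Dusp4 lay between the controls. Of 40 fibroblast growth factor and neurotrophin genes 24 lay higher, with a median of 0.04. Spry1 and Spry4, feedback inhibitors of receptor tyrosine kinases, had 0.33 ± 0.10 and 0.39 ± 0.16.

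**Figure D5:**
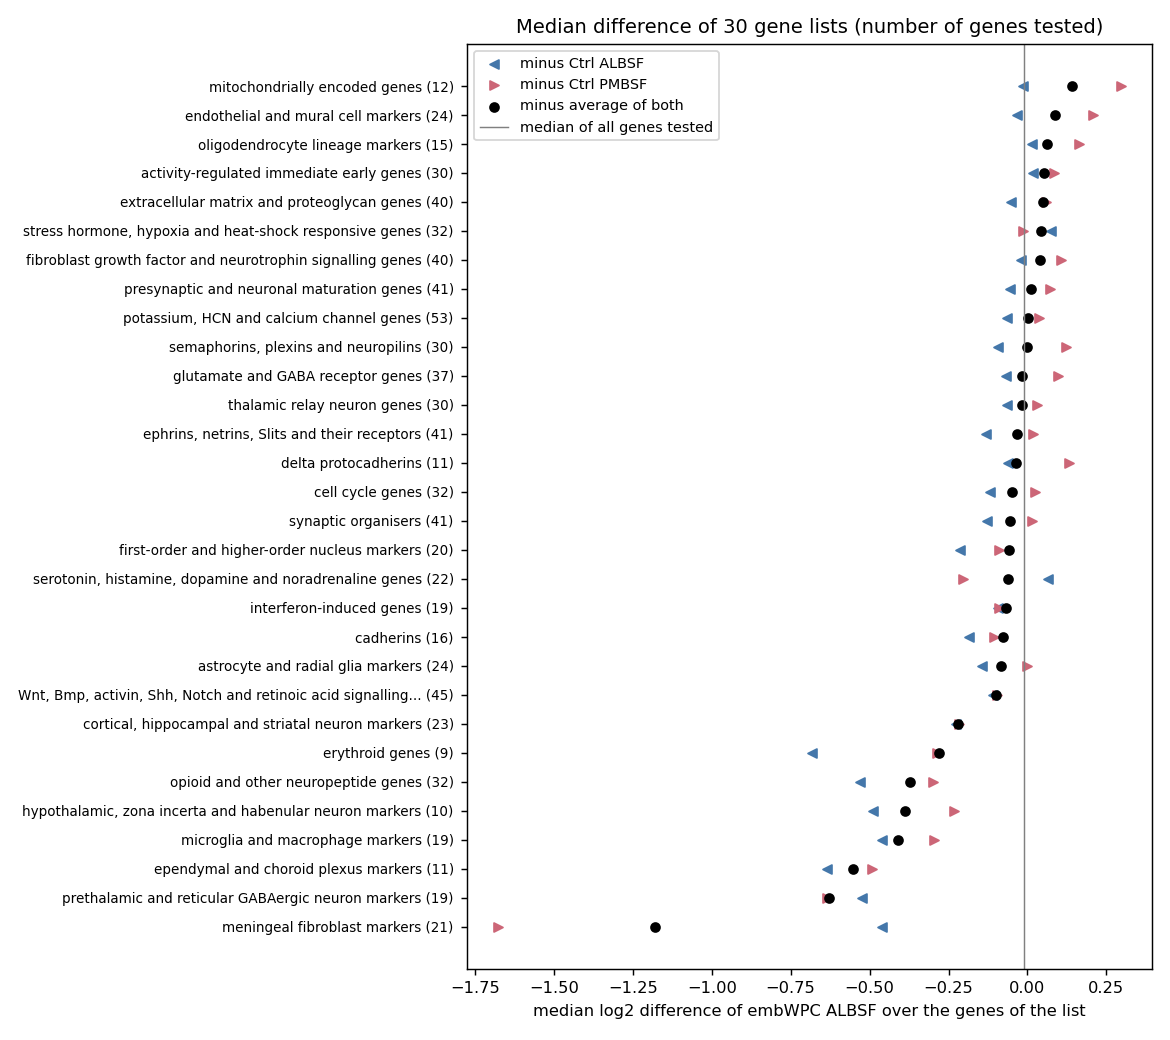
Median log2 difference of embWPC ALBSF over each of 30 gene lists, against Ctrl ALBSF, against Ctrl PMBSF and against their average (black), with the number of genes tested in brackets. The meningeal list lies at -1.18 and most other lists lie near the median of all genes, the grey line at -0.01.

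The precision of the contrast depended on expression. The median SE was 0.125 over all genes, 0.103 for genes with a mean of at least 1 CPM and 0.354 below that. A gene that is not called may therefore still differ.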

How the data were processed

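Bulk poly-A RNA was counted in 12 libraries. The deposited values are raw counts per gene, which the authors made with STAR 2.7.9a and featureCounts of Subread 2.0.1, as the submitters' processing notes and the series design state. The build was GRCm39, per the series design; the notes also list mm10. Strand and multi-mapping settings are not given in the sources used here, so counts of overlapping genes are uncertain. The files held 55359 genes, of which 54749 matched the annotation used for symbols and positions. Differences were fitted with edgeR 4.0.16 under R 4.3.3 (quasi-likelihood test, TMM scaling, filterByExpr by group, group as the only term), which left 17501 genes at a biological coefficient of variation of 15.8%. DESeq2 1.42.0 and limma 3.58.1 served as alternatives, with other filters, scalings, covariates, a replicate block and libraries left out. The code was tested on simulated data. Benjamini-Hochberg adjustment ran over all genes tested, with a threshold of 0.05. CPM are counts scaled to a common library size by TMM, and an SE comes from the fit. Between any 2 libraries the chi-square over its degrees of freedom was at least 12.6, so no library was entered more than once.

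Named genes were the 10 in each direction with the smallest p in the averaged contrast (mean of at least 1 CPM and no Gm, Rik or pseudogene symbol), since none was called, 3 members of each described list with the smallest p, 4 in each direction for the control contrast, and fixed check genes. Results of 1 gene that this rule takes are not reported here. Other genes in the text are markers named in the lists, or were chosen after their values were seen. The contrast and the 31 lists were chosen with earlier results of these data known.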

Additional observations from a re-analysis of the deposited data

Results flagged for a closer look

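Within groups of 4 libraries, the highest or lowest library stood apart from the rest by a gap wider than Dixon's 95% critical value in 19 of 315 groups examined. Chance flags about 1 group in 20.

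In Ctrl ALBSF the highest library was at 21.1 CPM for Gnas (next 14.9), 102 for Ptgds (next 10.2), 6.02 for Cyp26a1 (next 3.98), 0.232 for Egr3 (next 0.176) and 43.9 for Slc2a1 (next 37.7). The choroid plexus gene Ttr, a thyroxine carrier, was at 98.8 CPM in 1 Ctrl ALBSF library (next 3.74) and at 21.97 in 1 Ctrl PMBSF library (next 3.42), in both cases the library numbered 2. The ependymal and choroid plexus markers summed to 138.9 CPM in the highest Ctrl ALBSF library (next 55.8) and 74.0 in the highest Ctrl PMBSF library (next 55.1). The lowest Ctrl ALBSF library for Spp1, the osteopontin gene, was at 3.47 CPM (next 9.30).

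In Ctrl PMBSF the highest library for Aif1 was at 6.94 CPM (next 4.58). The lowest library was at 2.17 CPM for Sst (next 5.62) and 12.8 for Etv1 (next 14.9).

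In embWPC ALBSF the highest library for Gamt was at 12.1 CPM (next 9.56). The lowest library was at 1.79 CPM for Ptgds (next 3.93), 1.46 for Cd68, a lysosomal protein of macrophages (next 2.35), 102.8 for Adgrl2 (next 116.6) and 2.36 for the Y-linked Kdm5d (next 5.96). The synaptic organisers summed to 1877.8 CPM in the lowest embWPC library (next 2081.8).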

How the results depend on the processing

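The count of called genes in the averaged contrast stayed at 0 with RLE or upper-quartile scaling, a minimum mean of 1 CPM, limma-voom, control pools as a random effect, all 8 controls as 1 group, the 4 control means by number, and the GABAergic and Ddx3y covariates. It was 18 without a count filter (4 higher, 14 lower; 34533 genes tested), 12 with DESeq2 (4 higher, 8 lower), 1 with the meningeal covariate and 1 without both control libraries numbered 2, and 0 to 1 when single replicates were left out. The outside test gave 1 gene without a count filter (Ptgds, adjusted p = 0.0375) and 1 without both control libraries numbered 2 (Rps2-ps10, adjusted p = 0.0141), and 0 otherwise, from 0 to 0 over the replicates left out. The covariates and the removal of both number 2 libraries were chosen after seeing the data. The causes of these changes were not tested.

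The replicate number was used as a block, giving 0 called genes in the averaged contrast (1697 at an unadjusted p under 0.05) and 0 in the outside test (437). Same-numbered Ctrl ALBSF and Ctrl PMBSF libraries correlated at 0.198 to 0.396, but embWPC libraries with same-numbered controls at -0.147 to 0.051, so the numbers do not pair embWPC with the controls.

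Values that changed sign were Dcn, 0.252 with the covariate of the meningeal list, of which it is a member (0.164 beyond the nearer control), Ttr, 1.04 with it and 0.728 without both number 2 libraries (0.686 beyond the nearer control), Xist, -2.37 with it, and Plxna2 and Tenm1, 0.097 and 0.16 with it. With all 8 controls as 1 group Adgrl2 was -0.06 and Hs6st2 -0.053, and Tll1 kept its sign at 0.069. With the GABAergic covariate Uty, Ddx3y and Eif2s3y were -0.078, -0.10 and -0.163, and Kdm5d was -0.01 with the Ddx3y covariate. Angpt2, at -0.008 in the contrast as reported, was 0.004 with upper-quartile scaling, 0.007 with the block, 0.033 with limma-voom, 0.003 with control pools or the 4 control means, 0.093 with the GABAergic covariate, 0.013 with the Ddx3y covariate and 0.01 without both number 2 libraries. Leaving out single replicates gave -1.96 to 0.021 for Ttr, -0.004 to 0.075 for Slc17a6, -0.003 to 0.48 for Uty, -0.028 to 0.44 for Kdm5d, -0.08 to 0.479 for Ddx3y, -0.273 to 0.811 for Xist, -0.025 to 0.444 for Eif2s3y and -0.069 to 0.057 for Angpt2.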

Other observations

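Oligodendrocyte lineage markers had 11 of 15 members higher than the average of the controls, with a median of 0.06 and 0 called by edgeR, and Mbp, myelin basic protein, was at 29.9 to 42.3 CPM in embWPC ALBSF and 22.3 to 37.8 in the controls (log2 0.29). Astrocyte and radial glia markers had 9 of 24 higher, with a median of -0.09. Mitochondrially encoded genes had 10 of 12 higher, with a median of 0.14, made of -0.015 against Ctrl ALBSF and 0.297 against Ctrl PMBSF. Their summed CPM ran from 17854 to 26480 in Ctrl ALBSF, 12886 to 27191 in Ctrl PMBSF and 21088 to 27248 in embWPC ALBSF. Semaphorins, plexins and neuropilins had 15 of 30 higher, with a median of -0.003. None of these values was tested as a set.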
